A study of Mus musculus with 36 samples.

Results

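Early pathology of mdx muscle, from 4 to 6 weeks of age, was read from the 4 arrays that set 6-week against 4-week hindlimb muscle. The study places the first necrosis before 4 weeks and the start of regeneration around 6 weeks. The 4 arrays belong to the 36 arrays of the time course. In 2 of them both ages were mdx mice and in 2 both were control mice. The mdx mice lack full-length dystrophin and came from C57Bl/10ScSn-mdx/J stock crossed with C57Bl/6NCrl and CBA/JCrl, while the controls were C57Bl/10ScSnOlaHsd, so dystrophin and strain background cannot be told apart. Each age of a strain was represented by 2 mice, labelled individual A and individual B, so 8 mice stand behind the 4 arrays, named here mdx A, mdx B, control A and control B after the letter of the mice. All mice were untreated, and their sex is not given in the sources used here. No array carried both strains, so each array shows how a strain changed between the ages, and a difference in level between strains at an age cannot be read from it. Values are natural log ratios of 6 over 4 weeks after subtraction, for each spot, of the mean of that strain's 18 arrays, which is the dye effect of the closed loop. The 6-week mice were in channel 1 on both mdx arrays and in channel 2 on both control arrays, so neither strain had a dye swap for this step. A dye effect left after the subtraction would enter the strains with opposite sign. On this scale 0.693 is a 2-fold and 0.405 a 1.5-fold change.

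Dystrophin links the cytoskeleton of the muscle fibre to the extracellular matrix, and fibres without it are damaged by contraction. In mdx mice a wave of fibre necrosis begins after weaning, and macrophages invade the damaged fibres, engulf debris through their lysosomes and release factors that act on satellite cells, the stem cells of muscle. Spi1, also called PU.1, is the transcription factor that specifies macrophages and other myeloid cells. Macrophages also secrete proteases such as the elastase Mmp12, and present antigen on molecules of the major histocompatibility complex.

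The 4 arrays held 6754 probes with a gene name. Their medians lay between -0.04 and 0.01, and duplicate spots correlated across probes with r of 0.810 on mdx A, 0.507 on mdx B, 0.724 on control A and 0.638 on control B. On mdx B 123 probes had spots over 4-fold apart, with the second spot the lower in 94 of them, against 2 probes on mdx A, 28 on control A and 57 on control B. Between arrays, changes of the 6754 probes correlated with r = 0.24 for both mdx arrays, -0.01 for both control arrays and 0.35 for mdx A with control A, given as descriptions over probes that share arrays and spots. Of the muscle markers, which as ratios show change and not presence, Acta1 and Tnnt3 changed by under 0.5 on every array and Ckm by 0.69 on mdx A, 0.13 on mdx B, 0.89 on control A and -0.12 on control B.

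From 4 to 6 weeks the myeloid genes Mmp12, Gpnmb and Spi1 rose in mdx muscle. In mdx mice 7 probes were called higher at an adjusted p of 0.05 (0.104% of 6754), namely Mmp12, Lcp2, Gpnmb, Spi1, Trf, Hs1bp3 and H2-Q2, and 3 were called lower (0.0444%). In control mice 0 probes were called in either direction, with 82 higher (1.21%) and 152 lower (2.25%) at an unadjusted p under 0.05, against 375 higher (5.55%) and 170 lower (2.52%) in mdx mice. The difference between the strains' changes was called for 0 probes by limma, with 170 higher (2.52%) and 103 lower (1.53%) at an unadjusted p under 0.05 and a lowest adjusted p of 0.425, so no single gene was shown to change more in mdx than in control mice. All tests were limma over the 36 arrays with Benjamini-Hochberg adjustment. Standard errors and p-values rest on the spread over all 36 arrays of both strains, moderated across probes, and not on the 4 arrays alone. Where n is given, it is the number of arrays averaged. The count of 10 called in mdx rests on few arrays: it was 2 without mdx B, Mmp12 among them, and 100 without mdx A, when the step was read from 1 array whose spread was taken to be that of the others. It was 166 with the arrays scaled to the same spread, and 0 with the first spot alone or with only the 4 arrays in the fit. With the letter of the mice as a block at each age, chosen after seeing the data, it was 1, Mmp12.

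Mmp12, the macrophage elastase, changed by 1.44 on mdx A, 1.20 on mdx B, 0.13 on control A and -0.06 on control B. Both mdx values stood well above both control values, and the mean rise in mdx of 1.32 ± 0.20 (SE, n = 2 arrays), or 3.75-fold, had an adjusted p of 0.00335 by limma. Spi1, the myeloid transcription factor, changed by 0.78, 1.30, 0.02 and -0.04 on mdx A, mdx B, control A and control B. It rose 2.83-fold in mdx mice (1.04 ± 0.20, limma adjusted p = 0.0313) while both control arrays were close to 0. Gpnmb, a membrane glycoprotein of phagocytes, changed by 1.23 on mdx A and 1.65 on mdx B but by -0.20 on control A and -0.49 on control B. It rose 4.22-fold in mdx mice (1.44 ± 0.28, limma adjusted p = 0.0313), and its difference between strains of 1.79 ± 0.40 had a limma adjusted p of 0.425. Lcp2, an adaptor of immune receptors in T cells and myeloid cells also called SLP-76, changed by 0.64, 0.95, -0.11 and 0.24 on mdx A, mdx B, control A and control B, a rise of 2.21-fold in mdx mice (limma adjusted p = 0.0181).

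Starts of 3 genes that were higher on both mdx arrays, Mmp12, Gpnmb and Cd68, are shown. These genes were picked with their values known, and only starts that held a match are printed. Other genes higher on both mdx arrays are not shown. The sequences are those of RefSeq on GRCm38.p6, 250 bases before to 50 after an annotated start, read along the gene's strand. Capitals mark matches to the motif GAGGAAGT of Ets factors and PU.1, marked in Mmp12 alone, or to the AP-1 motif TGANTCA, marked in all 3 genes. Both strands were searched.
Mmp12, start with an Ets and PU.1 match (chr9:7344147-7344446, plus strand): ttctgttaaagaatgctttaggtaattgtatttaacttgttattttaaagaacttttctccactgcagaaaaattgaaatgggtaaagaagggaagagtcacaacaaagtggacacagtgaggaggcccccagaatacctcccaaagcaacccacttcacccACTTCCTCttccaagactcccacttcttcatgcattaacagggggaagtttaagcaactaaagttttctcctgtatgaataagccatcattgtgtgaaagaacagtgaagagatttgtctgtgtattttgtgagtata
Mmp12, start with an AP-1 match (chr9:7347124-7347423, plus strand): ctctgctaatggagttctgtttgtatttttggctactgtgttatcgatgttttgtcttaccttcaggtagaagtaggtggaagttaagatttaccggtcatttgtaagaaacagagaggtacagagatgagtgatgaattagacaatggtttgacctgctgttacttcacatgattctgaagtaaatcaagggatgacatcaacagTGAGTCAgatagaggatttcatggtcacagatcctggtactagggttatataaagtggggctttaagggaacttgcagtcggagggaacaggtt
Gpnmb (chr6:49036268-49036567, plus strand): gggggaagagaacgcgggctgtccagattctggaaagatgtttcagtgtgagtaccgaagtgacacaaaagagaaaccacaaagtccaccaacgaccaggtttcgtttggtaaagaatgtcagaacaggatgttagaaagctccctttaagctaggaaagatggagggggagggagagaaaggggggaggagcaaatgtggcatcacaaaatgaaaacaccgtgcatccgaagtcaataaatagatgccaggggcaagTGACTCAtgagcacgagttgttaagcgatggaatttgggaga
Cd68 (chr11:69666121-69666420, minus strand): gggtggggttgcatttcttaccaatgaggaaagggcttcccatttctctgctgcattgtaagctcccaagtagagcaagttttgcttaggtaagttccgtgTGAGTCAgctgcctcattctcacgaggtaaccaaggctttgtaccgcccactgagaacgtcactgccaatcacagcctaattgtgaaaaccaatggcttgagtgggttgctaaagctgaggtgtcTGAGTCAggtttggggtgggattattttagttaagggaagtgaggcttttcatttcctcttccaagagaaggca
In Mmp12 the Ets and PU.1 match, on the opposite strand, began 88 bases before the start it belongs to, and the AP-1 match 44 bases before the other start. In Gpnmb an AP-1 match lay 9 bases after the start, and in Cd68 the AP-1 matches began 149 and 24 bases before it. The Ets and PU.1 motif occurred in 3.2% and the AP-1 motif in 7.81% of 32851 mouse promoters of this length. Spi1 had no entry in the promoter table. The motifs were chosen with the expression values known, and a match is a description of the letters only.

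The 3 other genes called higher have less specific roles, and near-identical genes or other probes limit them. Trf, transferrin, the iron carrier of blood, changed by 1.03 on mdx A, 1.03 on mdx B, 0.31 on control A and -0.14 on control B on the called probe (2.80-fold in mdx, limma adjusted p = 0.0313). Its 3 other probes gave mean changes in mdx of 1.27, 0.83 and -0.10, none of them called. H2-Q2, a class I histocompatibility gene with near-identical relatives that may share its probe, changed by 1.05, 1.17, 0.99 and 0.19 on mdx A, mdx B, control A and control B. The rise was 3.03-fold in mdx mice (limma adjusted p = 0.0345), but control A overlapped it, and H2-Q2 also had the lowest adjusted p of the change shared by both strains, 0.0936. Hs1bp3, which encodes a partner of the haematopoietic protein HS1, changed by 0.90, 1.13, 0.30 and -0.48 on the same arrays (2.75-fold in mdx, limma adjusted p = 0.0313).

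The 3 probes called lower in mdx mice each rest on 1 spot of 1 array. Tas2r105, a bitter taste receptor, changed by -0.46 on mdx A, -1.46 on mdx B, -0.06 on control A and 0.10 on control B (limma adjusted p = 0.0313), but on mdx B its spots read 0.08 and -3.00. For Gnrhr, the receptor of gonadotropin-releasing hormone, the mdx B spots read 0.33 and -2.82, and for the calpain Capn10 they read -0.19 and -2.81. With the first spot alone the mean change of Gnrhr in mdx was 0.01, and none of the 3 was called. None of the 7 probes called higher was called with the first spot alone either. Among those, the mdx A spots of Mmp12 read 0.87 and 2.01. Of the 170 probes lower in mdx at an unadjusted p under 0.05, 83 had mdx B spots over 4-fold apart, against 1 of the 375 that were higher. When the 210 probes with spots over 4-fold apart on any of the 4 arrays were left out, 7 probes were called higher and 0 lower in mdx mice. The largest negative differences between strains, of Mog, Zfp420, Capn10, Polr2a, Rgs5 and Mink1, also rest on a low second spot of mdx B, which read between -3.89 and -2.79 for these 6 genes while the first spot read between -0.43 and 0.18.

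**Figure D1:**
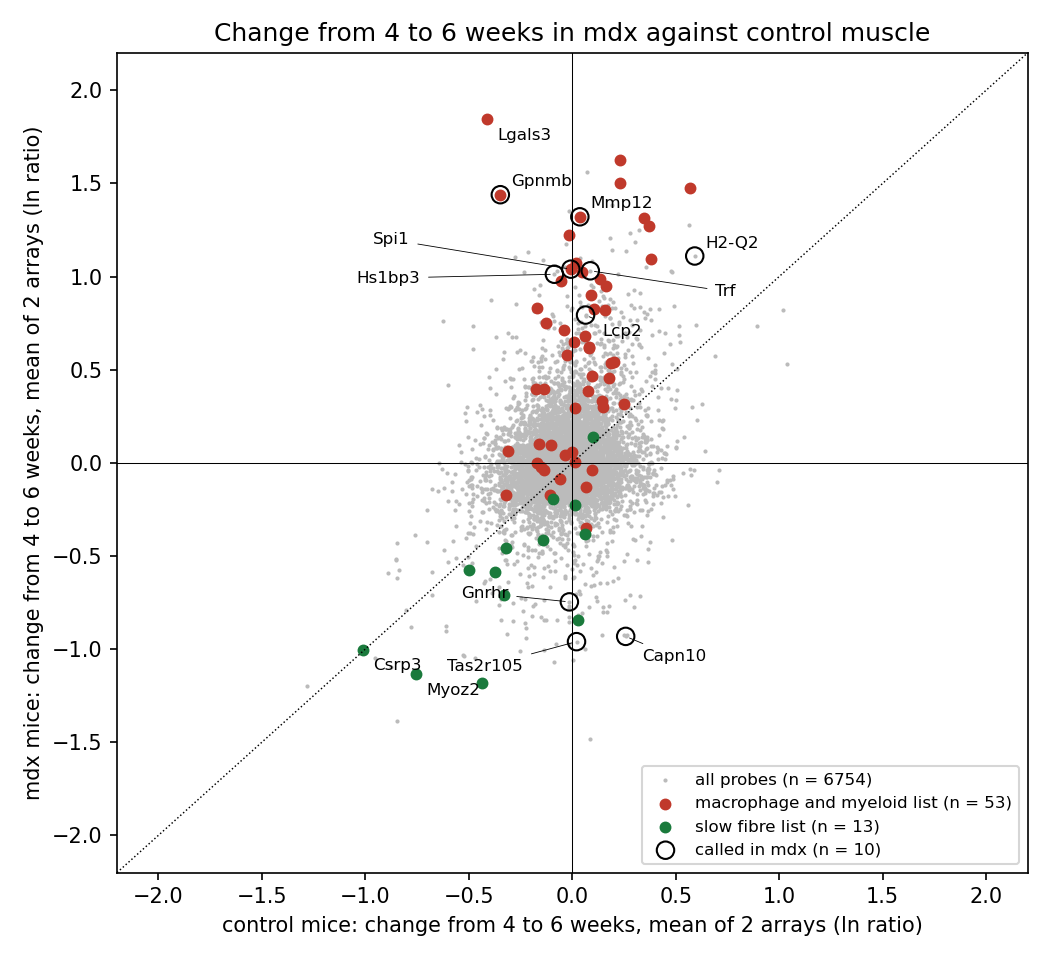
Mean change from 4 to 6 weeks of each of the 6754 probes in mdx mice (vertical axis, natural log ratio, 2 arrays) against control mice (horizontal axis, natural log ratio, 2 arrays). Red points are the 53 probes of the macrophage and myeloid list, green points the 13 of the slow fibre list and open circles the 10 probes called in mdx; most red points lie above 0 on the vertical and near 0 on the horizontal axis, and the slow fibre points lie mostly below 0 on the vertical axis.

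Of the 53 probes of the macrophage and myeloid list 3 were called higher in mdx mice, Mmp12, Gpnmb and Spi1, and 28 were higher and 0 lower at an unadjusted p under 0.05, beside 5.55% and 2.52% of all probes. The median change of the list was 0.31 on mdx A, 0.79 on mdx B, 0.03 on control A and 0.03 on control B, beside 0.01, -0.03, -0.02 and -0.04 for all probes. The list was thus shifted on both mdx arrays, more on mdx B than on mdx A, and sat at the level of all probes on both control arrays. Both mdx values lay above both control values for 35 of its probes and below both for 3, where 20.3% and 13.5% of all probes did so. The median difference between strains was 0.54, and 0.32 without mdx B, beside 0.05 for all probes. RNA came from whole hindlimb muscle, in which more cells of a type and more RNA per cell cannot be told apart.

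Several other transcripts by which macrophages are recognised were higher on both mdx arrays, though none of those given here passed the adjusted threshold. Cd68, a lysosomal membrane protein of macrophages, changed by 1.02 on mdx A, 1.03 on mdx B, -0.07 on control A and 0.16 on control B (2.78-fold in mdx, limma adjusted p = 0.101). Adgre1, the F4/80 antigen, gave 1.07, 1.08, -0.11 and 0.14 in the same order (limma adjusted p = 0.101). On both genes the mdx arrays agreed within 0.01 and lay about 1 natural log unit above the controls. Lgals3, the lectin galectin-3 of activated macrophages, had the largest mean change of the list, 1.90 on mdx A, 1.79 on mdx B, 0.14 on control A and -0.97 on control B (6.33-fold in mdx, limma adjusted p = 0.0989); the wide spread of this gene over all arrays gave it a standard error of 0.45. Mpeg1, the pore-forming perforin-2 of macrophages, gave 1.31, 1.69, 0.31 and 0.15. Tyrobp, the adaptor DAP12 of myeloid receptors, gave 0.92, 0.98, 0.16 and 0.17. Clec7a, the beta-glucan receptor dectin-1, was far higher on mdx B, at 2.34, than on mdx A, at 0.91, with 0.01 and 0.44 on the control arrays. Itgb2, the common beta chain of leukocyte integrins, which is not on the list, gave 1.05, 1.65, -0.08 and 0.05.

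Not every macrophage gene moved. Itgax, Ccr2, Cx3cr1 and Ctsd had mean changes in mdx between -0.09 and 0.06. Lyz2 (-0.17 on mdx A and -0.18 on mdx B) and Lyz1 (1.18 and 1.78) encode near-identical lysozymes, and their probes disagreed. Complement C1q is built of 3 chains made by macrophages, and the chains disagreed too: C1qa gave 1.24 and 0.94 and C1qc 0.80 and 0.86 on mdx A and mdx B, but C1qb gave -0.23 and -0.03. The monocyte receptor Cd14 gave 0.31, 0.92, 0.14 and 0.03 on mdx A, mdx B, control A and control B.

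By size on every array, 31 probes lay past 2-fold higher on both mdx arrays and under 1.5-fold on both control arrays (0.459% of 6754), and 1 lay lower (0.0148%), while 0 probes showed the reverse, past 2-fold on both control arrays and under 1.5-fold on both mdx arrays. Since the count is a description made from the same values, no test goes with it. The count of both directions in mdx was 251 without mdx A and 131 without mdx B, and the 0 of control was 64 without control A and 17 without control B. Leaving out an array also drops its condition from the rule, which by itself can only raise a count. The lowest mdx value of the last probe inside the limit, Ap3s1, was 0.72, and Vim, just outside, had 0.69. Of the 31, 7 were on the macrophage and myeloid list (53 of the 6754 probes) and 3 on that of chemokines and cytokines (50 probes). The lists of complement and antigen presentation (10 probes) and of interferon response (21 probes) held 1 each. The study's regeneration list (151 probes) held 4, and a lysosome list made after the values had been seen (52 probes) held 5. A gene among the 31 can be on more than 1 list. The 8 largest by mean were Ccl2, Mpeg1, Tubb5, Itgb2, Ms4a6d, Mmp12, Slfn3 and Bcl2a1c. Tubb5, a beta-tubulin with close relatives, was the single one of these 8 apart from Mmp12 with the higher value on mdx A (2.03 against 0.74 on mdx B). Bcl2a1c belongs to a family of near-identical inhibitors of cell death in leukocytes, and gave 0.75, 1.66, 0.19 and 0.17. The single probe that was lower was Tnni1, troponin I of slow fibres, at -0.71 and -0.97 on mdx A and mdx B and 0.13 and -0.08 on control A and control B (mean change in mdx -0.84 ± 0.44, limma adjusted p = 0.705).

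**Figure D2:**
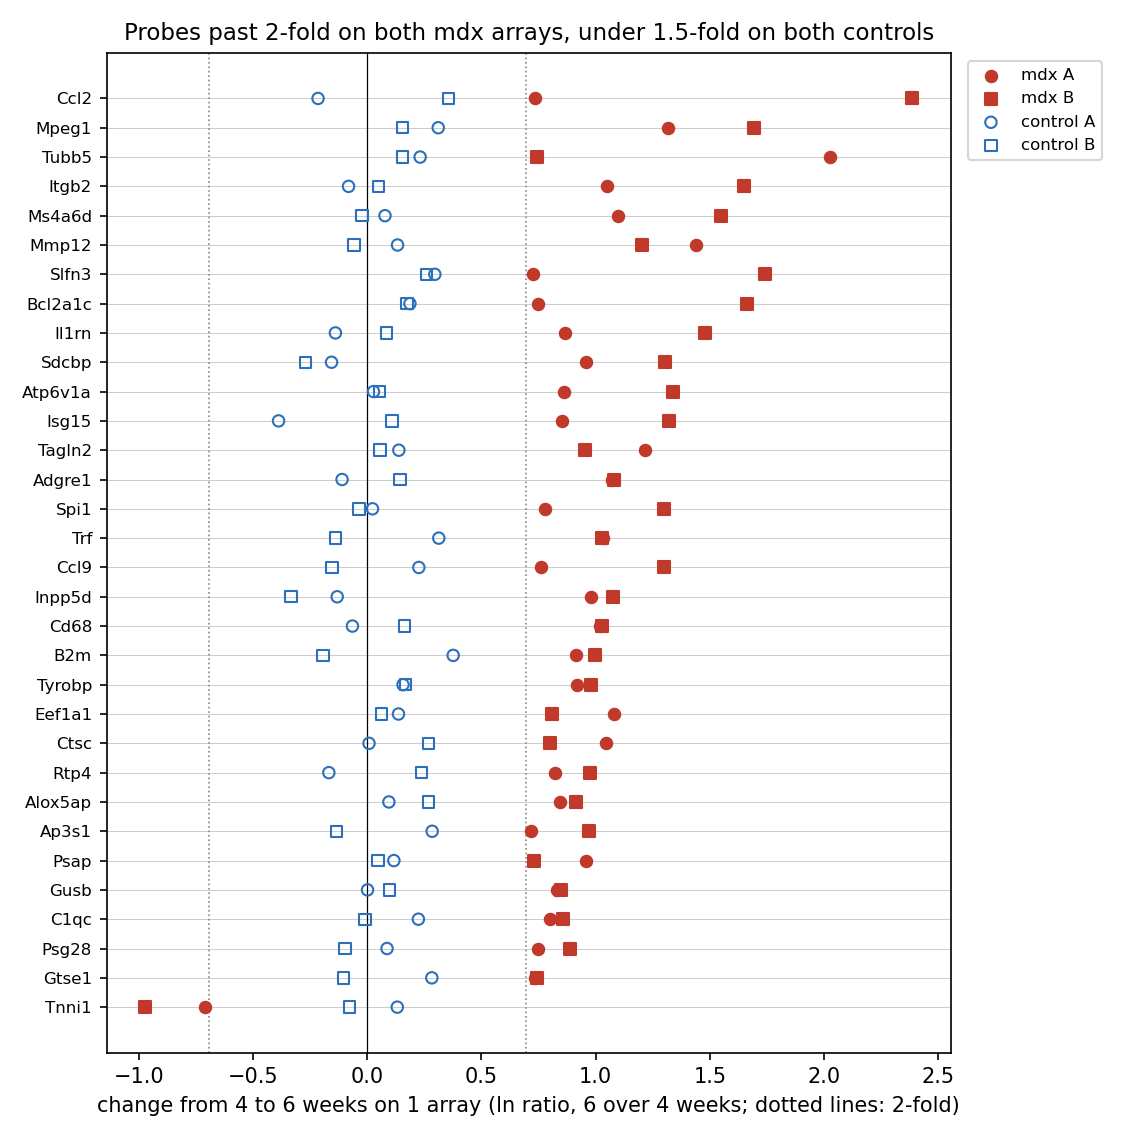
Change from 4 to 6 weeks (horizontal axis, natural log ratio) on each of the 4 arrays for the 32 probes past 2-fold on both mdx arrays (filled red) and under 1.5-fold on both control arrays (open blue); dotted lines mark 2-fold. The rows are ordered by the mdx mean, from Ccl2, whose mdx values lie furthest apart at 0.73 and 2.39, to Tnni1, the single gene that is lower.

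Chemokines and cytokines moved gene by gene. Of the 50 probes of this list 0 were called and 7 were higher and 0 lower in mdx at an unadjusted p under 0.05, beside 5.55% and 2.52% of all probes, and the list's median change was near 0 on mdx A (-0.01) and 0.16 on mdx B. Ccl2, the main attractant of monocytes, gave 0.73 on mdx A, 2.39 on mdx B, -0.22 on control A and 0.36 on control B, and this spread left it at a limma adjusted p of 0.524. Ccl9, an attractant of myeloid cells, gave 0.76, 1.30, 0.23 and -0.15, and Il1rn, the antagonist of the interleukin-1 receptor, gave 0.87, 1.48, -0.14 and 0.08. Each of these genes was higher on mdx B than on mdx A. Tnfsf12, the cytokine TWEAK, just missed the threshold at a limma adjusted p of 0.0501 with 0.74, 0.57, -0.13 and -0.16 on mdx A, mdx B, control A and control B.

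Some genes of antigen presentation and of the interferon response were also higher on both mdx arrays, though none of either list was called. B2m, the light chain of class I molecules, gave 0.92 on mdx A, 1.00 on mdx B, 0.38 on control A and -0.19 on control B (2.60-fold in mdx, limma adjusted p = 0.0989). Both probes of Psmb8, a subunit of the immunoproteasome that cuts peptides for class I molecules, were higher on both mdx arrays (0.60 and 0.33 on one probe, 0.61 and 0.86 on the other) than on both control arrays (0.18 and -0.18, 0.18 and -0.05). Of the 10 probes of complement and antigen presentation 5 were higher and 0 lower in mdx at an unadjusted p under 0.05 (5.55% and 2.52% of all probes), with list medians of 0.51, 0.35, 0.15 and -0.12. Isg15, a ubiquitin-like protein induced by interferon, gave 0.85, 1.32, -0.39 and 0.11 (2.97-fold in mdx, limma adjusted p = 0.0989). Of the 21 probes of the interferon list 8 were higher and 0 lower in mdx by the same count, with medians of 0.20, 0.47, 0.05 and 0.01 on mdx A, mdx B, control A and control B. The members did not move as a block, since Isg15, Tgtp1, Ifi203, Irf8 and Oas1a had mean changes in mdx between 0.70 and 1.09 but Mx1, Irf7, Ifit2, Oasl2 and Usp18 between -0.05 and 0.09. The start of Isg15 is shown because it carries the interferon-stimulated response element (TTTC, then NN, then TTTC), an element present in 3.44% of mouse promoters. The overlapping matches, in capitals, lie on the opposite strand, so the printed letters read GAAA, then NN, then GAAA. They begin 78, 72 and 66 bases before the start.
Isg15 (chr4:156200769-156201068, minus strand): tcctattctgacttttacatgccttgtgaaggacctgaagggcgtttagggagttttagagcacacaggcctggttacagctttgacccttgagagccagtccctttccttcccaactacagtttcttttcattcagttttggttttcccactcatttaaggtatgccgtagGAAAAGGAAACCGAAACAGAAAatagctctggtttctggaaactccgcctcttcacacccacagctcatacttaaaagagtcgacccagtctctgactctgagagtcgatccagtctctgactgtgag

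Lysosomal genes were higher on the mdx arrays beside those of macrophages. The list was made after the values had been seen and shares members with the myeloid list, so its counts describe and do not test. Of its 52 probes 0 were called, 19 were higher and 0 lower in mdx at an unadjusted p under 0.05, beside 5.55% and 2.52% of all probes, and the medians were 0.44 on mdx A, 0.17 on mdx B, 0.03 on control A and -0.02 on control B. Unlike the myeloid list, the lysosomal list had its higher median on mdx A. Atp6v1a, the catalytic subunit of the proton pump that acidifies lysosomes, gave 0.86, 1.34, 0.03 and 0.05 (3.01-fold in mdx, limma adjusted p = 0.0533). Psap, the precursor of proteins that aid lipid breakdown, gave 0.96, 0.73, 0.12 and 0.05, and Gusb, beta-glucuronidase, 0.83, 0.85, 0.00 and 0.10. Cathepsin S, the protease Ctss of antigen-presenting cells, gave 1.54, 1.09, 0.28 and 0.41.

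The lists of other immune cells and of fibroblasts had median changes near 0 on the mdx arrays. At an unadjusted p under 0.05 in mdx, where 5.55% of all probes were higher and 2.52% lower, 4 of 24 lymphocyte probes were higher and 0 lower, 2 of 18 probes of neutrophils and mast cells were higher and 0 lower, and 2 of 74 probes of extracellular matrix and fibroblasts were higher and 3 lower. The median changes of these 3 lists lay between -0.065 and 0.054 on the mdx arrays and between -0.225 and 0.080 on the control arrays. The -0.225 was that of the matrix and fibroblast list on control A, with -0.028 on control B. That list had a median difference between strains of 0.20, beside 0.05 for all probes. Both mdx values lay above both control values for 19 of its probes and below both for 8, where 20.3% and 13.5% of all probes did so. The lymphocyte genes Il7r, the interleukin-7 receptor, and Cd72, a B cell receptor protein, were high on mdx B alone (2.02 and 1.67) and lay at 0.18 and 0.01 on mdx A. The neutrophil calcium-binding protein S100a8 went apart on the mdx arrays, at -0.57 and 1.29. Genes of regenerating muscle (43 probes, 1 higher and 2 lower), of satellite cells (27 probes, 0 and 1) and of the cell cycle (61 probes, 0 and 2) had medians between -0.14 and 0.06 on the mdx arrays, with Myog, the transcription factor of differentiating muscle, at -0.10 and 0.05 and Pax7, that of satellite cells, at -0.15 and 0.15. In control mice 0 of the 61 cell cycle probes were higher and 8 lower at an unadjusted p under 0.05, where 1.21% and 2.25% of all probes were. The cell cycle medians were -0.11 on control A and -0.07 on control B.

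**Figure D3:**
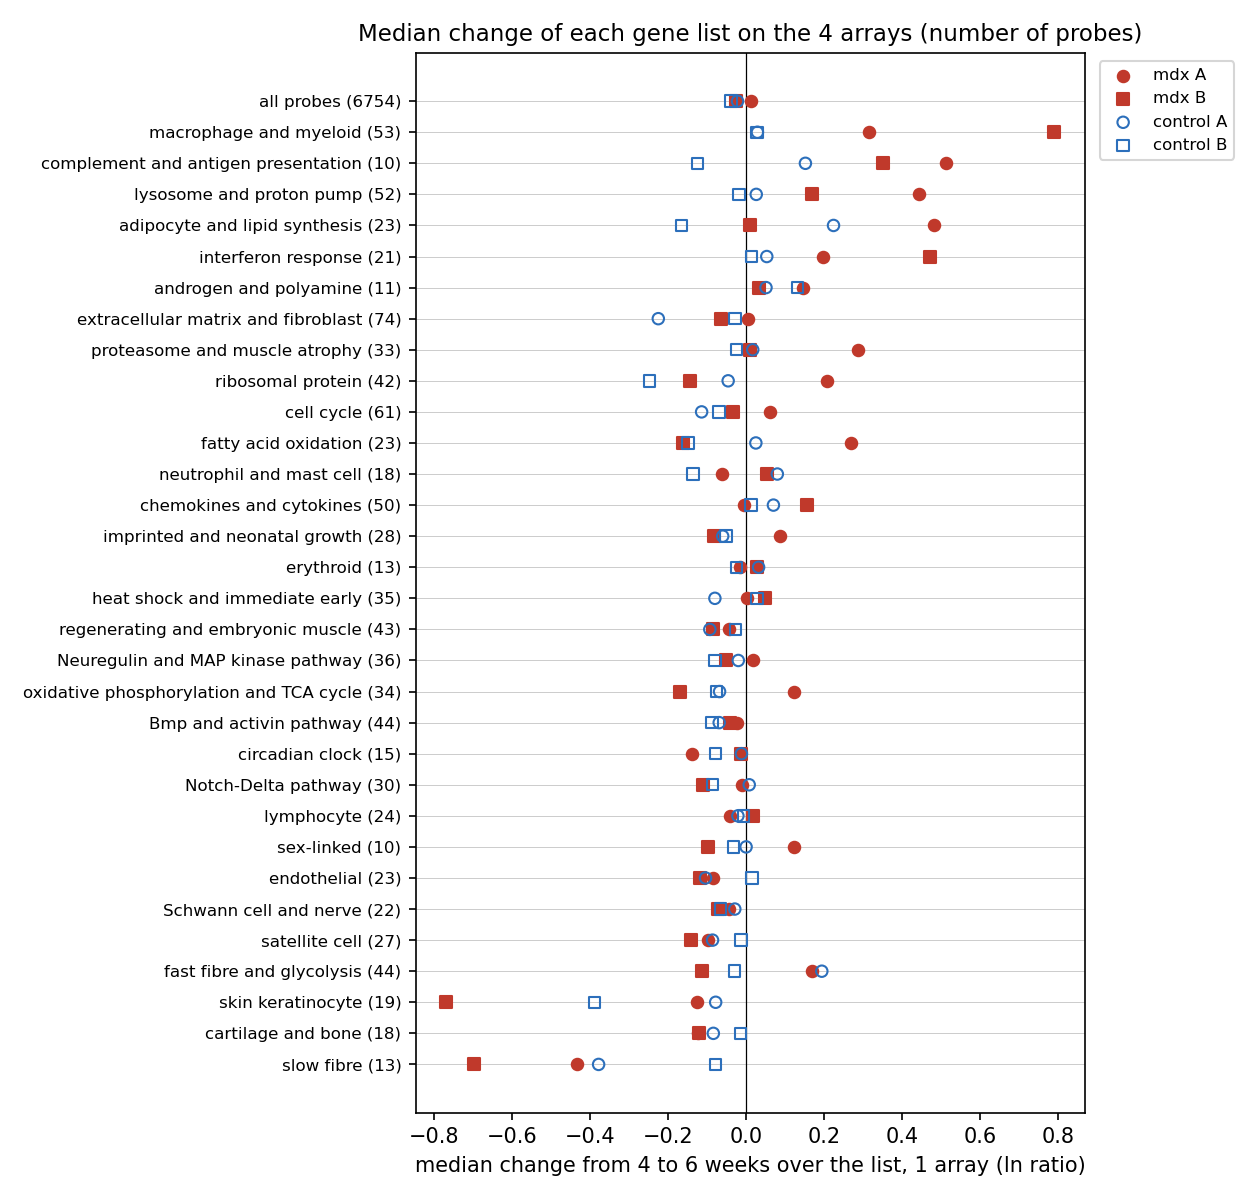
Median change from 4 to 6 weeks (horizontal axis, natural log ratio) over the probes of each gene list on each of the 4 arrays, with the number of probes in brackets and the mdx arrays filled red, the control arrays open blue. Both mdx medians lie above both control medians for the macrophage and myeloid list (0.31 and 0.79 against 0.03 and 0.03), and the slow fibre and keratinocyte lists lie below 0 on all 4 arrays. The lysosome list was chosen after values were seen.

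No gene of dystrophin and its partners was called over this step, where 0.104% of all probes were called higher and 0.0444% lower in mdx. The Dmd probe at the 3' end of the transcript gave 0.50 on mdx A, -0.16 on mdx B, 0.13 on control A and -0.14 on control B, and the probe of Dp260, a short dystrophin isoform whose own start lies downstream of the mdx mutation, gave -0.05, -0.09, -0.29 and 0.00. Both probes thus lie downstream of the mutation and read transcripts, not protein. Utrn, utrophin, the paralog of dystrophin, gave -0.16, -0.22, 0.04 and -0.14. The sarcoglycans Sgca and Sgce were higher on mdx A (0.57 and 0.56) and not on mdx B (0.03 and -0.63). Of the 49 measured probes of the study's list of the costamere, the rib-like link between sarcomere and membrane, 0 were called, 3 were higher and 0 lower in mdx at an unadjusted p under 0.05 (5.55% and 2.52% of all probes), and the median difference between strains was 0.02; the 151 probes of its regeneration list, chosen on these samples and so no independent evidence of direction, had a median difference of 0.03.

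The Notch-Delta, Bmp and Neuregulin pathways, which the study examined for regeneration, had 0 called probes among 30, 44 and 36. Of all probes 0.104% were called higher and 0.0444% lower in mdx, so 0 calls among so few probes is no result about the pathways. At an unadjusted p under 0.05 in mdx 0, 2 and 3 were higher and 1, 2 and 2 lower, beside 5.55% and 2.52% of all probes. Their medians on the mdx arrays lay between -0.11 and 0.02. Dll1, a ligand of Notch receptors, gave -0.26, 0.11, -0.74 and -0.24, and Notch1 itself 0.29, -0.01, 0.04 and -0.01 on mdx A, mdx B, control A and control B. Id2, a target of Bmp signals that blocks differentiation factors, stood out among the Bmp genes, since the strains moved apart: 0.69 and 0.78 on the mdx arrays and -0.49 and -0.47 on the control arrays. Its difference of 1.22 ± 0.48 had an unadjusted p of 0.0185 and a limma adjusted p of 0.988. Erbb3, a Neuregulin receptor, gave -0.40, -0.16, 0.07 and 0.28, and Erbb4 had both probes within 0.5 of 0 on every array.

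Some genes moved the same way on the arrays of both strains. The shared change was called for 0 probes by limma, with 234 higher (3.46%) and 255 lower (3.78%) at an unadjusted p under 0.05. On all 4 arrays 5 probes lay past 1.5-fold higher (0.074%), Cish, Casq1, Bin1, Ccl8 and Eif3e, and 2 past 1.5-fold lower (0.0296%), Csrp3 and Atp1b1. The total of 7 was between 11 and 46 when any 1 of the 4 arrays was left out, with 15 without mdx A, 11 without mdx B, 17 without control A and 46 without control B. A left-out array also takes its condition out of the rule, which by itself can only raise the count. Eif3e, just inside the limit, had a lowest value of 0.41, and Cd55b, just outside, 0.37. In the same direction on all 4 arrays, at any size, lay 482 probes higher (7.14%) and 724 lower (10.7%).

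Cish, an inhibitor of cytokine receptor signalling that STAT5 induces, gave 1.10 on mdx A, 0.55 on mdx B, 1.49 on control A and 0.54 on control B. Both A arrays were higher than both B arrays, and the shared change of 0.92 ± 0.20 (n = 4 arrays) had a limma adjusted p of 0.182. Its start is shown because the STAT motif TTCNNNGAA, in capitals, matched at the start itself and again from base 12, a motif found in 8.3% of mouse promoters.
Cish (chr9:107296409-107296708, plus strand): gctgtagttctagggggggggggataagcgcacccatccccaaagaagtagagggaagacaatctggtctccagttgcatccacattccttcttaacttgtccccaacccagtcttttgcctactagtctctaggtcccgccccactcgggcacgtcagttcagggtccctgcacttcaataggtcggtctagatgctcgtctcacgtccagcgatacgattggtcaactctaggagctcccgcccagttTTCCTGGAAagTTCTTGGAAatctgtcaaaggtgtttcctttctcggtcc
Casq1, the calcium store protein of fast fibres, gave 1.34, 0.72, 0.45 and 0.51, and Bin1, which shapes the transverse tubules of muscle, 1.03, 0.65, 0.43 and 0.55. Ccl8, a monocyte attractant, was higher on both control arrays too (0.41, 0.74, 0.92 and 0.47), unlike Ccl2. Csrp3, the muscle LIM protein of slow and cardiac muscle, gave -0.85, -1.16, -1.51 and -0.52, and Atp1b1, a subunit of the sodium pump, between -0.58 and -0.43 on all arrays; neither shared change passed the limma threshold (adjusted p = 0.394 and 0.423).

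Csrp3 belongs to the genes of slow, oxidative fibres, of which several were lower at 6 weeks. The 13 probes of the slow fibre list had medians of -0.43 on mdx A, -0.70 on mdx B, -0.38 on control A and -0.08 on control B. In mdx 4 were lower and 0 higher at an unadjusted p under 0.05, where 2.52% of all probes were lower, in control 2 were lower and 0 higher, where 2.25% were lower, and none was called. Myoz2, a Z-disc protein of slow fibres, gave -0.93, -1.34, -1.17 and -0.35 (shared change -0.94 ± 0.21, limma adjusted p = 0.182). Tnnt1, slow troponin T, gave -0.89, -1.48, -0.79 and -0.07, so control B alone stayed near 0. Tpm3 and Mb, the slow tropomyosin and myoglobin, lay within 0.5 of 0 on all 4 arrays. The list of fast fibres and glycolysis had medians of 0.17 on mdx A, -0.11 on mdx B, 0.19 on control A and -0.03 on control B.

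Skin genes moved on the B arrays of both strains. The 19 probes of the keratinocyte list had medians of -0.13 on mdx A, -0.77 on mdx B, -0.08 on control A and -0.39 on control B. Krt27, a hair root keratin, gave -0.06, -2.33, 0.00 and -2.56, and Lor, the cornified envelope protein loricrin, -0.08, -1.68, -0.10 and -1.47. In the step before, from 2.5 to 4 weeks, Krt27 gave -2.33 on mdx A, 2.54 on mdx B, -0.10 on control A and 1.65 on control B. The arrays on which Krt27 and Lor were lower were thus those on which Krt27 had been higher in the step before, and the 4-week B mice are on both steps. The median of the myeloid list was 0.31 on mdx A, 0.79 on mdx B, 0.03 on control A and 0.03 on control B. The part of skin in the muscle results was not tested.

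**Figure D4:**
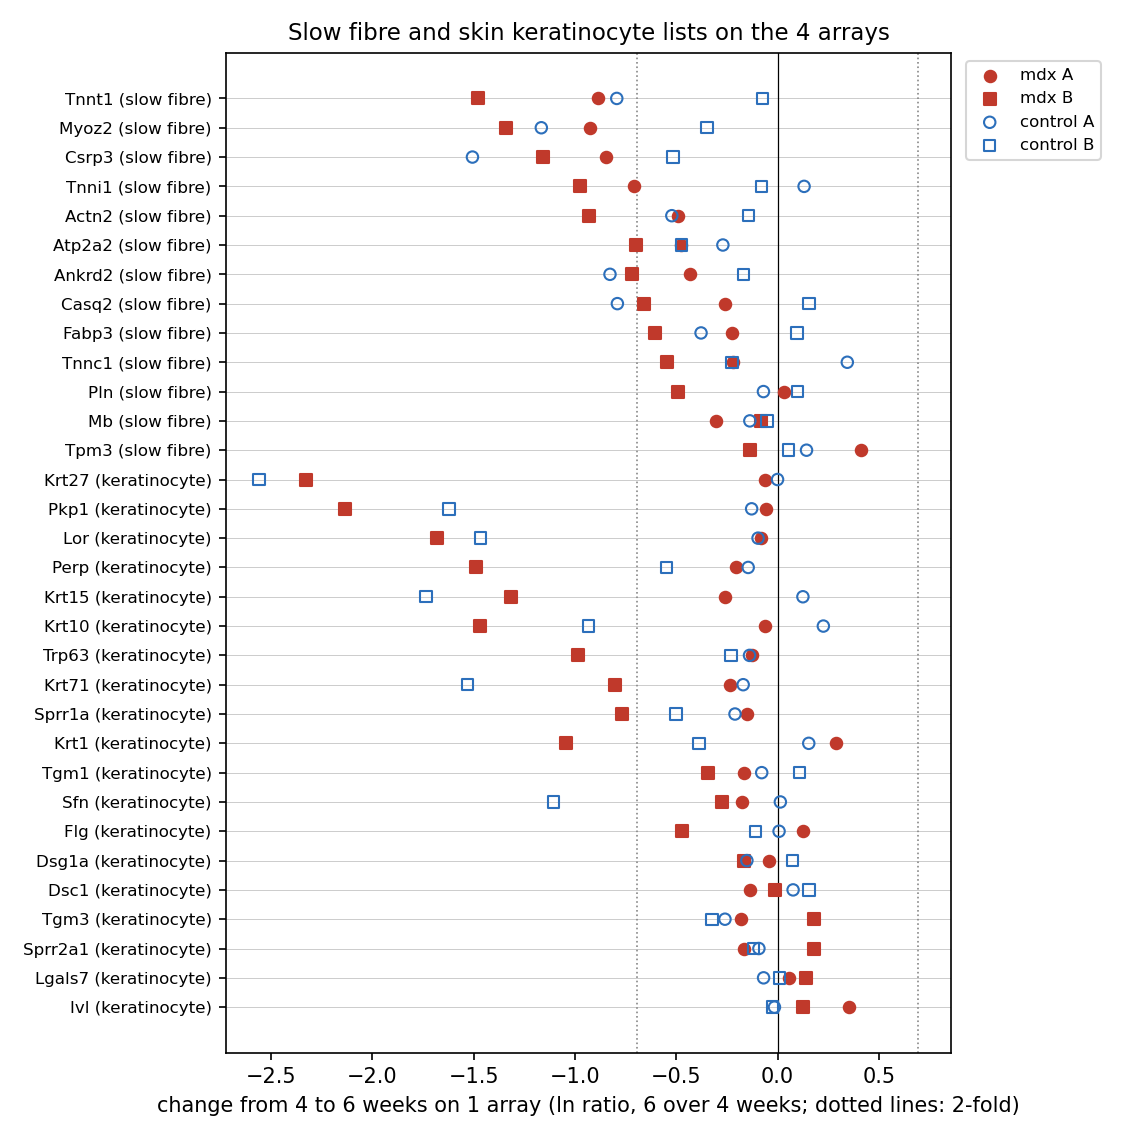
Change from 4 to 6 weeks (horizontal axis, natural log ratio) on each of the 4 arrays for the 13 probes of the slow fibre list and the 19 of the keratinocyte list; dotted lines mark 2-fold. Squares are the B arrays and circles the A arrays, filled red for mdx and open blue for control: Krt27, Pkp1, Lor and Krt15 lie far to the left on both B arrays and near 0 on both A arrays, while the slow fibre probes lie left on most arrays.

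Of the 15 probes of the daily clock list 4 were lower and 1 higher on all 4 arrays, where 10.7% and 7.14% of all probes were. The medians were -0.14 on mdx A, -0.01 on mdx B, -0.01 on control A and -0.08 on control B. At an unadjusted p under 0.05 in mdx 1 was higher and 3 lower, beside 5.55% and 2.52% of all probes, the 3 being Per1, Per2 and Dbp. Per1 gave -1.08 on mdx A, -0.34 on mdx B, -0.14 on control A and -1.22 on control B, Per2 gave -0.46, -0.44, -0.24 and -0.69, and Dbp gave -0.35, -0.92, -0.10 and -0.52. All 3 are core parts or direct outputs of the clock, none was called, and the hour of sampling is not given in the sources used here. Of the 23 probes of adipocyte and lipid synthesis genes 0 were called, and 4 were higher (Cebpa, Cidec, Dgat1 and Me1) and 0 lower in mdx at an unadjusted p under 0.05, beside 5.55% and 2.52% of all probes. The medians were 0.48 on mdx A, 0.01 on mdx B, 0.22 on control A and -0.17 on control B, so both A arrays lay above both B arrays. Both mdx values lay above both control values for 2 of the 23 and below both for 1, where 20.3% and 13.5% of all probes did so. Cebpa, a transcription factor of fat cells, gave 1.26, 0.39, 0.79 and -0.03 on these arrays.

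The steps before and after share the 4-week and 6-week mice with this one, and their values are set side by side. From 2.5 to 4 weeks the myeloid list had medians of 0.21 on mdx A and 0.20 on mdx B, and 0.02 and 0.06 on the control arrays. From 6 to 8 weeks the mdx series parted, with 0.40 on mdx A and -0.71 on mdx B, where 39 and 12 of 53 probes were higher, and 0.00 and -0.03 on the control arrays. Mmp12 was lower from 6 to 8 weeks on both mdx arrays, more on mdx B, at -0.07 and -0.16 from 2.5 to 4 weeks and -0.24 and -1.01 from 6 to 8 weeks on mdx A and mdx B. Lgals3 was already higher from 2.5 to 4 weeks on both mdx arrays, at 0.64 and 1.66, but also on control B, at 1.02, and from 6 to 8 weeks it gave 0.39 on mdx A and -1.80 on mdx B. Added along the arrays, the level of Mmp12 at 8 weeks against 4 weeks was 1.20 in series A and 0.20 in series B of mdx mice. With 1 mouse at each point of a series, the difference between the mdx series at 8 weeks was not tested.

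**Figure D5:**
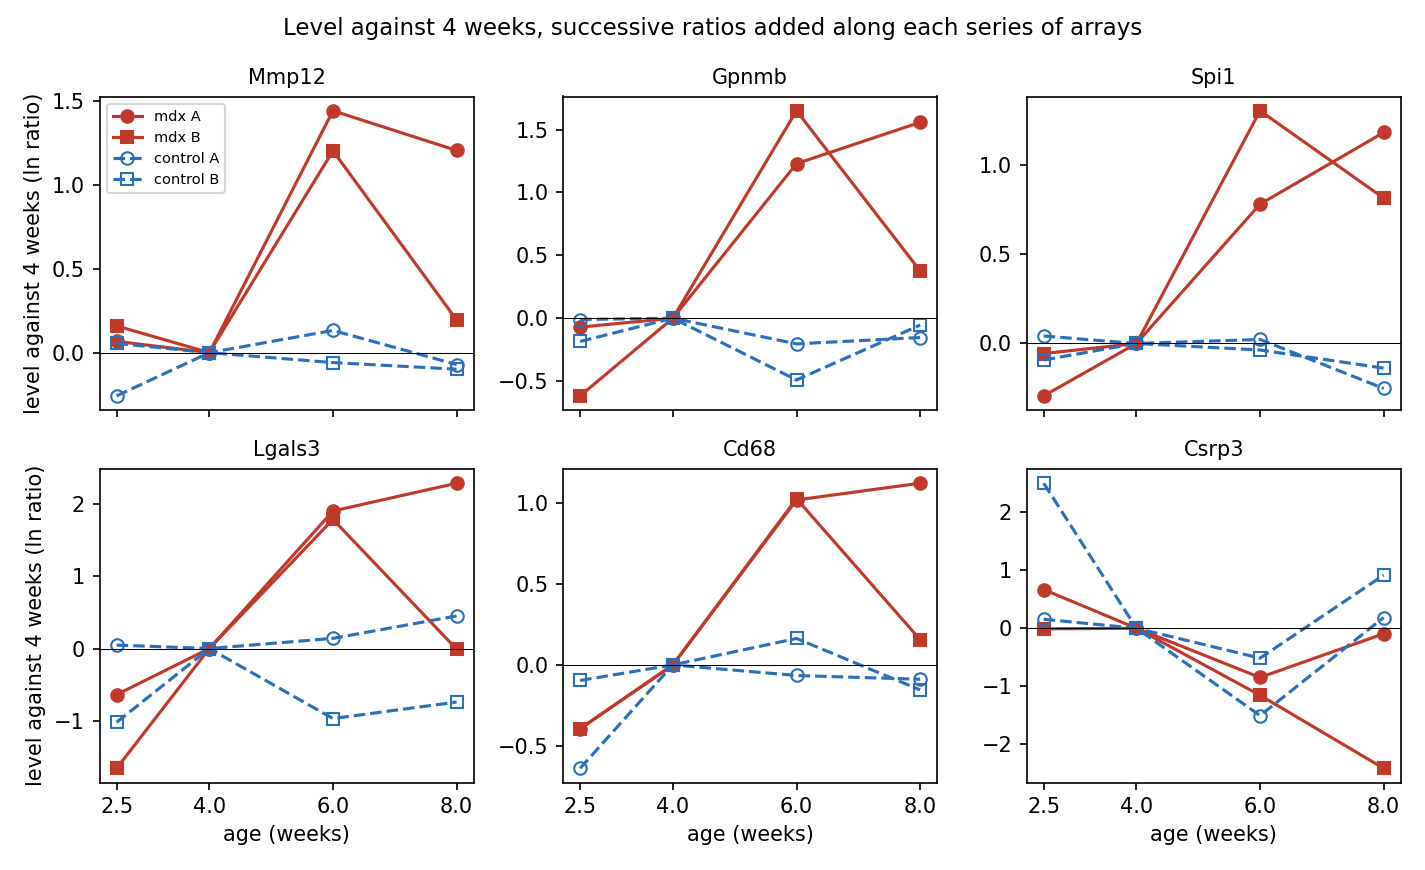
Level of 6 genes at 2.5, 4, 6 and 8 weeks (horizontal axis) relative to 4 weeks (vertical axis, natural log ratio), from successive ratios added along each series of arrays; red filled symbols are mdx, blue open symbols control, circles series A and squares series B, with 1 mouse at each point. Mmp12, Gpnmb, Spi1, Lgals3 and Cd68 are higher at 6 than at 4 weeks in both mdx series. By 8 weeks series A is still high and series B is below its 6-week level, though Spi1 in series B is still at 0.81, against 1.30 at 6 weeks. Csrp3 is lower at 6 weeks in all 4 series.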

How the data were processed

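Hindlimb muscle RNA was amplified, labelled with Cy3 and Cy5 and hybridised to 65-mer oligonucleotides printed in duplicate. The authors read spots with GenePix Pro 3 as median intensities less the local background and normalized by VSN, and the deposited values are natural log ratios of channel 1 over channel 2 (15552 spots, 7776 positions, no missing values). The direction was taken from the labels and checked against averaged levels held in part (r across 815 probes was 0.806 for mdx and 0.572 for control). The number of arrays limits the precision.

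Duplicate spots were averaged, and 938 positions without a gene name were left out. Of 6754 probes, 6747 had 1 gene symbol and 7 several. The test was limma 3.58.1 under R 4.3.3 on all 36 arrays, with age within strain, 1 dye term for each strain and correlated arrays that share a mouse (variance ratio 0.270), giving 18 residual and 7.33 prior degrees of freedom. Benjamini-Hochberg adjusted p-values under 0.05 were called. Median standard errors were 0.185 in mdx, 0.131 shared and 0.262 for the difference. On simulated data for 6754 probes, the test recovered 38 of 67 changes of 2-fold in mdx and 65 of 67 of 4-fold, with 6 false calls, and for the difference 11 of 67 and 55 of 67, with 8. The simulated errors were normal, of the same spread on every array for a probe, and held no aberrant spots. The measured arrays had estimated weights from 0.28 to 1.96, and on mdx B 123 probes had spots over 4-fold apart. The simulated recovery and false calls are therefore not those of the measured arrays.

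The members, the lists and the rules were chosen with earlier results of these data known. Named genes were the largest of each fold pattern, of the differences and of each list, every called probe, and the genes of the dystrophin complex and the Notch, Bmp and Neuregulin pathways. Other genes named as examples of a list, near the threshold or without change were chosen after their values were seen. Promoters came from RefSeq (GRCm38.p6), and 20 of the 31 genes higher in mdx had an entry. Alternatives covered centring, scaling, the dye term, single spots, left-out arrays, a replicate block, array weights and the variance model. The authors' own test of signals could not be run on ratios, which hold no signal per channel.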

Additional observations from a re-analysis of the deposited data

Results flagged for a closer look

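Of the 938 positions to which no gene name could be given, 2 lay past 2-fold higher on both mdx arrays and under 1.5-fold on both control arrays, and 1 lay past 1.5-fold in the same direction on all 4 arrays. They are data outside the comparisons of named probes, and no gene is given for them here.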

How the results depend on the processing

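The calls in mdx mice, 10 in the report, numbered 166 with each array scaled to the same spread, 16 with the second spot alone, 3 with 1 dye term for both strains, 2 with each probe's own variance, 2 by Bonferroni adjustment, and 0 with no dye term, with the first spot alone or with only the 4 arrays. With an array left out they numbered 2 to 100. The shared change, 0 calls in the report, had 6 with scaling, 2 with array weights, 1 with centring, 1 with the first spot alone, 1 with the second and 0 to 58 with an array left out, the 58 without mdx A. The change in control had 0 to 6 with an array left out, the 6 without control A. The difference between strains had 1 with scaling and 0 to 48 with an array left out, the 48 without mdx A. Probes past 1.5-fold on all 4 arrays, 7 in the report, numbered 3 with scaling, 11 with 1 dye term and 11 to 46 with an array left out. Probes of mdx alone, 32 in the report, numbered 51 with the second spot alone and 42 to 251 with an array left out. Probes of control alone, 0 in the report, numbered 62 with no dye term, 1 with the first spot alone, 10 with the second and 0 to 64 with an array left out. For these counts by size, a left-out array also drops its condition from the rule, which by itself can only raise them. In these settings the cause was not tested. With the first spot alone Gnrhr reversed, to 0.008. The median difference of the macrophage and myeloid list lay between 0.319, without mdx B, and 0.692, with no dye term.

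The letters were not taken to pair the strains: deviations of same-letter arrays correlated with r between -0.118 and 0.217 over 8 steps, the 0.217 being that of 4 to 6 weeks. With the letter of the array as a replicate block 10 probes were called in mdx, and with a replicate block at each age, chosen after seeing the data, 1. Leaving out probes with spots over 4-fold apart, also chosen after seeing the data, left 7. Mmp12 was called in 15 of 19 settings, Lcp2 in 14, Gpnmb and Trf in 12, Spi1 in 11, and H2-Q2 and Hs1bp3 in 10.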
